A study of Mus musculus with 12 samples.

Results

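The unfolded protein response of the endoplasmic reticulum (ER) and the integrated stress response that it feeds were followed through 10 genes in mouse spinal cord, of 12393 gene symbols on the array. The genes were chosen by name: Hspa5, Hsp90b1, Pdia4, Sdf2l1, Manf and Creld2 encode proteins of the ER lumen, Xbp1, Atf4 and Ddit3 encode transcription factors, and Ppp1r15a encodes a phosphatase subunit. All 10 were on the array, as 18 probe sets (each a group of short probes for 1 transcript), and no member was absent. A filter on low signal kept 15 of the 18 probe sets for testing. The 3 dim probe sets belong to Pdia4, Xbp1 and Atf4, each of which also has a brighter probe set.

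When unfolded proteins build up in the ER, the chaperone Hspa5 (BiP) leaves the sensors Ern1 (IRE1), Eif2ak3 (PERK) and Atf6. Ern1 splices Xbp1 mRNA into the form that encodes an active factor, and this factor and cleaved Atf6 switch on chaperone genes through ER stress elements in their promoters. Eif2ak3 phosphorylates the initiation factor eIF2, which lowers protein synthesis but favours translation of Atf4, whose targets include Ddit3 (CHOP) and Ppp1r15a (GADD34), the subunit that brings a phosphatase back to eIF2. In the spinal cord the pathway has been studied in motor neurons under stress and in oligodendrocytes, which pass large amounts of myelin protein and lipid through the ER. The arrays measure mRNA and not Xbp1 splicing, phosphorylation or translation.

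The 12 arrays form 3 groups of 4, all at an age of 13 days, with RNA from mice of line 4299. On an FVB background it joins the insertions Tg(SMN2*delta7)4299Ahmb and Tg(SMN2)89Ahmb with the mouse allele Smn1tm1Msd, and it serves as a model of severe spinal muscular atrophy (SMA), in which too little survival motor neuron protein leads to death of motor neurons. All 3 groups carry the human SMN2 and SMNΔ7 transgenes (SMN2+/+;SmnΔ7+/+). The wildtype group is mSmn+/−, so it has lost 1 of the mouse Smn alleles, and it received vehicle. The SMA vehicle group is mSmn -/- and received vehicle. The SMA ceftriaxone group is mSmn -/- and received ceftriaxone, a beta-lactam antibiotic, at 200 mg/kg daily into the peritoneum from day 5. The labels speak both of whole cords and of lumbar segments from mice perfused with fixative, and they give neither the sex of the mice nor whether each array is a separate animal. The p-values therefore measure the spread between these arrays.

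Promoter sequence is shown first because the ER stress element is how a reader would recognise a classical target of the pathway. RefSeq (build GRCm38.p6) held a window from 250 bases before to 50 after the start for 9 of the 10 genes; Manf had no entry. The ER stress element (ERSE) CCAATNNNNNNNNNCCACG was searched on both strands and lay in 39 of 32851 promoter windows (0.119%). It was found in 3 of the 9 members, 4 times in all. The matches are given below in the direction of the gene, with the fixed letters in capitals; a match that begins with CGTGG is the element on the opposite strand.
Hspa5, -65 to -47: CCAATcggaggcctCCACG
Hsp90b1, -212 to -194: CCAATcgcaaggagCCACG
Hsp90b1, -107 to -89, opposite strand: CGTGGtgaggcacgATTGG
Creld2, -126 to -108, opposite strand: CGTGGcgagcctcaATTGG

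The shorter element ERSE-II, ATTGGNCCACG, was in 12 of the 32851 windows (0.0365%) and in 0 of the 9 members. The core of the element bound by Xbp1 and Atf6, TGACGTG, was in 661 windows (2.01%) and in Hspa5 alone among the members, from -157 to -151. The element bound by Atf4 with its partner C/EBP factors, TGATGNAA, was in 1304 windows (3.97%) and in 0 of the 9 members. The ends of the ERSE are common by themselves: CCAAT was in 37.4% of windows and CCACG in 32.8%, and each was in 7 of the 9 members, with every ERSE holding 1 of each. A match is a string of letters and not a measured binding site, and no match says only that these letters are not in the window.

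The 250 bases before the start are printed for 3 members that stand at different points of the results below: Hspa5, which holds the ERSE and did not pass the test in any comparison, Sdf2l1, which fell most in SMA vehicle cords and holds no complete ERSE in its window, and Ppp1r15a, the 1 member that rose there. Capitals mark either end of the ERSE wherever it occurs, and the core TGACGTG, on either strand.
Hspa5, chr2:34771840-34772089, plus strand: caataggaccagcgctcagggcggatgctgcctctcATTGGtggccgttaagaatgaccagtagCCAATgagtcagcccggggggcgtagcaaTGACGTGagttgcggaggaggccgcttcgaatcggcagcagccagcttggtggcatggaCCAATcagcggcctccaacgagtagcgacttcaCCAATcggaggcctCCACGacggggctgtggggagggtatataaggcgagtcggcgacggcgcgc
Sdf2l1, chr16:17132384-17132633, minus strand: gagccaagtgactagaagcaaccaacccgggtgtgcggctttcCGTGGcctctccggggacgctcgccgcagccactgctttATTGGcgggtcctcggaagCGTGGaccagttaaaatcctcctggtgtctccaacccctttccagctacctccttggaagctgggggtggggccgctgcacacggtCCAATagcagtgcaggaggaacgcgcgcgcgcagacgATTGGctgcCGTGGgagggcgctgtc
Ppp1r15a, chr7:45526269-45526518, minus strand: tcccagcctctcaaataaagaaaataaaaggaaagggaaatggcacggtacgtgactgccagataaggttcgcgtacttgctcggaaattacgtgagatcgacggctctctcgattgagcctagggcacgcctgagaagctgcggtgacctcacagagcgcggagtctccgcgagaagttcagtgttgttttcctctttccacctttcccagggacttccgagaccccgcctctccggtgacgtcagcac
The Hspa5 window holds 4 CCAAT and 1 CCACG, and the Sdf2l1 window 4 CCAAT and 3 CCACG, each counted over the full window. The full Ppp1r15a window holds 0 CCAAT and 1 CCACG, which lies just after the start, from 27 to 31.

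Each value is the MAS5 signal of a probe set on a linear scale, scaled by the authors to a like level on every array; median signals ran from 223.4 to 265.95. Tests were made with limma on log2(signal + 16) over all 12 arrays and 13575 probe sets, and a call is a Benjamini-Hochberg adjusted p under 0.05. The number of arrays limits the precision, with a median standard error of 0.12 for a log2 fold change. Smn1 read 263.4 to 414.3 in wildtype arrays and 3.3 to 15.8 in both SMA groups, as the labels state. Wildtype array 2 stood apart: 10 thymus genes summed to 38370 there, against at most 531.6 in the ceftriaxone arrays and 139.1 in the vehicle arrays. Xist, the transcript of the inactive X chromosome, was over 1000 in wildtype array 3, SMA vehicle arrays 1 and 4 and all 4 ceftriaxone arrays, with the Y-linked gene Eif2s3y at 0.3 to 5 there and at 344.5 or more elsewhere. Xist signal and group are thus partly confounded. This is strongest in ceftriaxone against wildtype, where all 4 ceftriaxone arrays but only wildtype array 3 were over 1000. Several results below are also given without wildtype array 2, or only on arrays with Xist under or over 1000. The arrays with Xist under 1000 include wildtype array 2.

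Cell type markers moved between the groups as well. The summed signal of 13 oligodendrocyte and myelin genes had a median of 135400 in wildtype (92780 to 150700), 43790 in SMA vehicle (27180 to 57710) and 113500 in the ceftriaxone arrays (109200 to 119000), and all 13 fell in SMA vehicle cords and rose with ceftriaxone. Of 12 neuron genes, 8 rose and 1 fell in SMA vehicle cords, and the same 8 fell with ceftriaxone. Those that rose were Syt1, Stmn2, Rbfox3, Tubb3, Elavl4, Gap43, Dcx and Map2, while Nefm fell and Snap25, Nefl and Syp did not pass. Of all genes by their brightest probe set, 25.5% rose and 23.6% fell in SMA vehicle cords. With ceftriaxone against SMA vehicle 19.9% rose and 17.8% fell. The neuron sums ran from 48790 to 71680, 72150 to 82720 and 59770 to 67700. Sums of 8 astrocyte genes were 28680 to 45840, 22980 to 28950 and 39800 to 43420, those of 10 microglia genes 7835 to 10860, 6012 to 6959 and 7995 to 9991, and those of 8 endothelial genes 6787 to 8812, 4256 to 5713 and 6142 to 8440, in the same order of groups. Wildtype array 2, the array with the thymus transcripts, gave the lowest wildtype sum for oligodendrocyte, neuron, astrocyte, microglia and endothelial genes alike. The lower ends of these wildtype ranges thus rest on that array. The astrocyte genes did not move together in SMA vehicle cords, where 2 rose (Aldh1l1 and Slc1a3) and 5 fell. Aldh1l1 and Slc1a3 were also higher than wildtype under ceftriaxone. Sums of 11 skeletal muscle genes, of which 3 passed the filter, were 891.3 to 2358, 2990 to 6830 and 388.4 to 1052. Sums of 8 plasma cell and B cell genes, cells in which this pathway is very active, had medians of 299.5, 305.5 and 351.3, with 633.6 in the highest wildtype array, array 2. Only 1 of the 8 passed the filter, Sdc1, which was higher than wildtype in both SMA groups, so these sums are mostly of dim signals. The part of these shifts in the results below was not tested, and in RNA from cord tissue fewer cells of a type and less RNA per cell cannot be told apart.

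In SMA vehicle cords the mRNAs of Sdf2l1, Manf and Creld2 fell, and those of Hspa5, Hsp90b1 and Pdia4 did not pass the test. The 3 tested Xbp1 probe sets fell, and Ppp1r15a rose. Ddit3 and the dimmer tested Atf4 probe set also fell, with arrays that overlap those of wildtype. Both of these calls were lost in most fits that left out 1 array, and the brighter Atf4 probe set did not pass. Sdf2l1 was at 0.45 times and Manf at 0.70 times its wildtype level, and Ppp1r15a at 1.68 times. Of the 15 member probe sets tested, 1 rose and 8 fell against wildtype, and 6 did not pass. Over all probe sets tested, 24.9% rose and 22.3% fell, so a call alone was common in this comparison. By the brightest probe set of each gene, 1 of the 10 members rose and 5 fell, beside 25.5% and 23.6% of all genes. The arrays of the groups did not overlap for 2 member probe sets that were higher and 7 that were lower, where 42.5% of all probe sets did not overlap in one direction or the other. The median log2 fold change was -0.26 over the members and 0.01 over all probe sets, while the median size without sign was 0.31 and 0.30. Without wildtype array 2 the members counted 1 higher and 9 lower, and on the 5 arrays with Xist under 1000 they counted 1 higher (Ppp1r15a) and 2 lower (Sdf2l1 and Manf). The shares of all probe sets called in these fits are not given here.

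**Figure D1:**
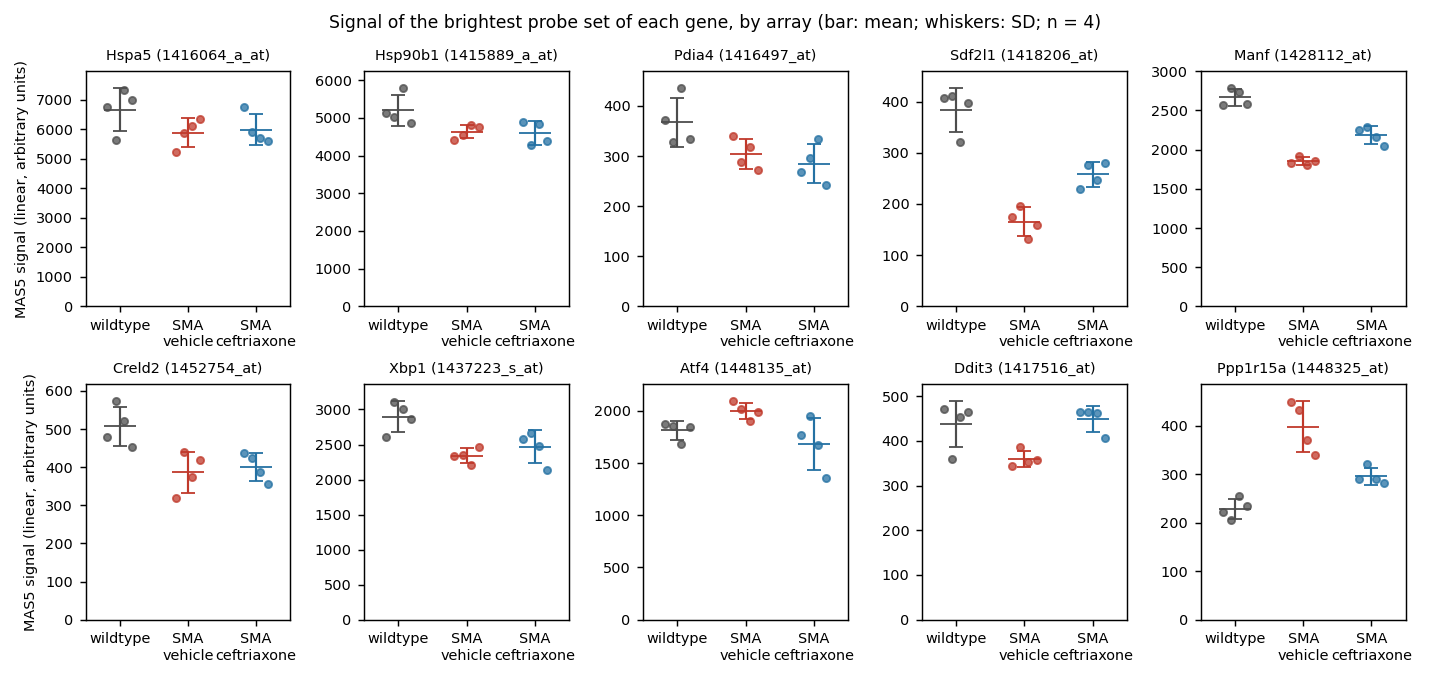
MAS5 signal (linear, arbitrary units) of the brightest probe set of each of the 10 genes in the 3 groups; points are arrays, bars are means and whiskers SD (n = 4), and every axis starts at 0. Sdf2l1 and Manf are low in all 4 SMA vehicle arrays and stand between the other groups in the ceftriaxone arrays, Ppp1r15a does the opposite, and the Hspa5 and Pdia4 points overlap across all 3 groups.

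Hspa5, the master chaperone of the ER lumen, was the brightest member. Its probe set 1416064_a_at read 6737, 5624, 7312 and 6973 in wildtype, 5218, 5879, 6117 and 6337 in SMA vehicle and 6748, 5902, 5691 and 5616 in the ceftriaxone arrays. The groups overlap, and the lowest wildtype value is that of array 2. The log2 fold change of SMA vehicle against wildtype was -0.17 ± 0.09 (SE; 95% interval -0.39 to 0.04; adjusted p = 0.142), and that of ceftriaxone against vehicle 0.02 ± 0.09 (-0.19 to 0.24; adjusted p = 0.861). Without wildtype array 2 the fall passed the test, at -0.25 (adjusted p = 0.0122). The dimmer probe set 1427464_s_at averaged 3266 ± 322 in wildtype arrays, 3073 ± 164 with SMA and vehicle and 2887 ± 68.8 with ceftriaxone (SD, n = 4), with a log2 fold change of -0.08 ± 0.07 for SMA vehicle against wildtype (adjusted p = 0.377), and it did not pass without that array either (-0.09, adjusted p = 0.304). The interval of the brighter probe set runs from a fall of -0.39 to a rise of 0.04.

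Hsp90b1 (GRP94), the ER member of the Hsp90 family, had 2 probe sets that differed from each other. Probe set 1415889_a_at read 5117, 5012.5, 5788 and 4864 in wildtype and 4417, 4557, 4796 and 4759 in SMA vehicle arrays, so every SMA vehicle array lay below every wildtype array by a small margin. The log2 fold change was -0.16 ± 0.07 (adjusted p = 0.0796) and became -0.18 (adjusted p = 0.043) without wildtype array 2. Probe set 1438040_a_at averaged 2669 ± 204 in wildtype and 2638 ± 271 in SMA vehicle arrays, a log2 fold change of -0.02 ± 0.09 (adjusted p = 0.875; 95% interval -0.21 to 0.18). With ceftriaxone the means were 4603 ± 318 and 2354 ± 167, and the log2 fold changes against SMA vehicle were -0.01 ± 0.07 (adjusted p = 0.922) and -0.16 ± 0.09 (adjusted p = 0.165).

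Pdia4 (ERp72), a disulfide isomerase of the ER, read 372, 328.5, 436 and 334 in wildtype, 339, 288, 318 and 272 in SMA vehicle and 268, 295, 334 and 242.5 in the ceftriaxone arrays. Its arrays overlap in all 3 comparisons. SMA vehicle against wildtype gave a log2 fold change of -0.26 ± 0.12 (adjusted p = 0.105), with -0.09 ± 0.12 for ceftriaxone against vehicle (adjusted p = 0.58) and -0.35 ± 0.12 for ceftriaxone against wildtype (adjusted p = 0.132). The second probe set, 1450620_at, lay under the filter with signals of 2.2 to 28.2 and gives no usable level.

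Sdf2l1, which works with the co-chaperone Dnajb11 on new proteins in the ER, had the largest change of any member. It read 407, 410.1, 320.5 and 398 in wildtype, 175, 197, 131 and 159 in SMA vehicle and 229, 276, 247 and 279 in the ceftriaxone arrays. All 3 groups are apart: every ceftriaxone array lies above every SMA vehicle array and below every wildtype array. The log2 fold change was -1.15 ± 0.13 for SMA vehicle against wildtype (adjusted p = 1.62e-05), and 5.8% of all probe sets had a larger change in either direction. It was 0.60 ± 0.13 for ceftriaxone against vehicle (adjusted p = 0.00318) and -0.54 ± 0.13 for ceftriaxone against wildtype (adjusted p = 0.0355). On arrays with Xist under 1000 the fall was -1.25 (adjusted p = 0.0151), and on arrays with Xist over 1000 the rise with ceftriaxone was 0.58 (adjusted p = 0.0123).

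Manf, an ER-resident and secreted protein with neurotrophic activity that binds Hspa5, followed the same order of groups with less spread. It read 2573, 2786, 2741 and 2585 in wildtype, 1834, 1923, 1806 and 1858 in SMA vehicle and 2248, 2295, 2166 and 2041 in the ceftriaxone arrays. The 3 groups do not overlap. Its log2 fold change was -0.52 ± 0.06 for SMA vehicle against wildtype (adjusted p = 2.19e-05), 0.23 ± 0.06 for ceftriaxone against vehicle (adjusted p = 0.00989) and -0.29 ± 0.06 for ceftriaxone against wildtype (adjusted p = 0.0228). On arrays with Xist under 1000 the fall was -0.50 (adjusted p = 0.037), and on those with Xist over 1000 the rise with ceftriaxone was 0.24 (adjusted p = 0.0413). With each array centred on its median, the rise with ceftriaxone did not pass (0.20, adjusted p = 0.0618).

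Creld2, an ER-stress-inducible protein with disulfide isomerase activity, read 480.4, 572.5, 522 and 453.5 in wildtype, 318, 439, 374 and 419 in SMA vehicle and 438, 424.5, 388.5 and 356 in the ceftriaxone arrays. Both SMA groups lie below every wildtype array and overlap each other. The log2 fold change was -0.38 ± 0.12 for SMA vehicle against wildtype (adjusted p = 0.0155), 0.06 ± 0.12 for ceftriaxone against vehicle (adjusted p = 0.734; 95% interval -0.20 to 0.32) and -0.32 ± 0.12 for ceftriaxone against wildtype (adjusted p = 0.135). Without SMA vehicle array 1 the fall in SMA vehicle cords just missed the threshold, with an adjusted p of 0.0506. Without wildtype array 2 the fall was -0.32 (adjusted p = 0.0272), and on arrays with Xist under 1000 it was -0.29 (adjusted p = 0.285). Among the 6 lumenal genes, taken by their brightest probe sets, 0 rose and 3 fell in SMA vehicle cords (limma, 0 and 4 at an unadjusted p under 0.05), 2 rose with ceftriaxone, and 2 stayed below wildtype under ceftriaxone. Of all 8004 genes counted the same way, 25.5% rose and 23.6% fell in SMA vehicle cords. With ceftriaxone 19.9% of them rose against SMA vehicle, and 0.962% were lower than wildtype.

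**Figure D2:**
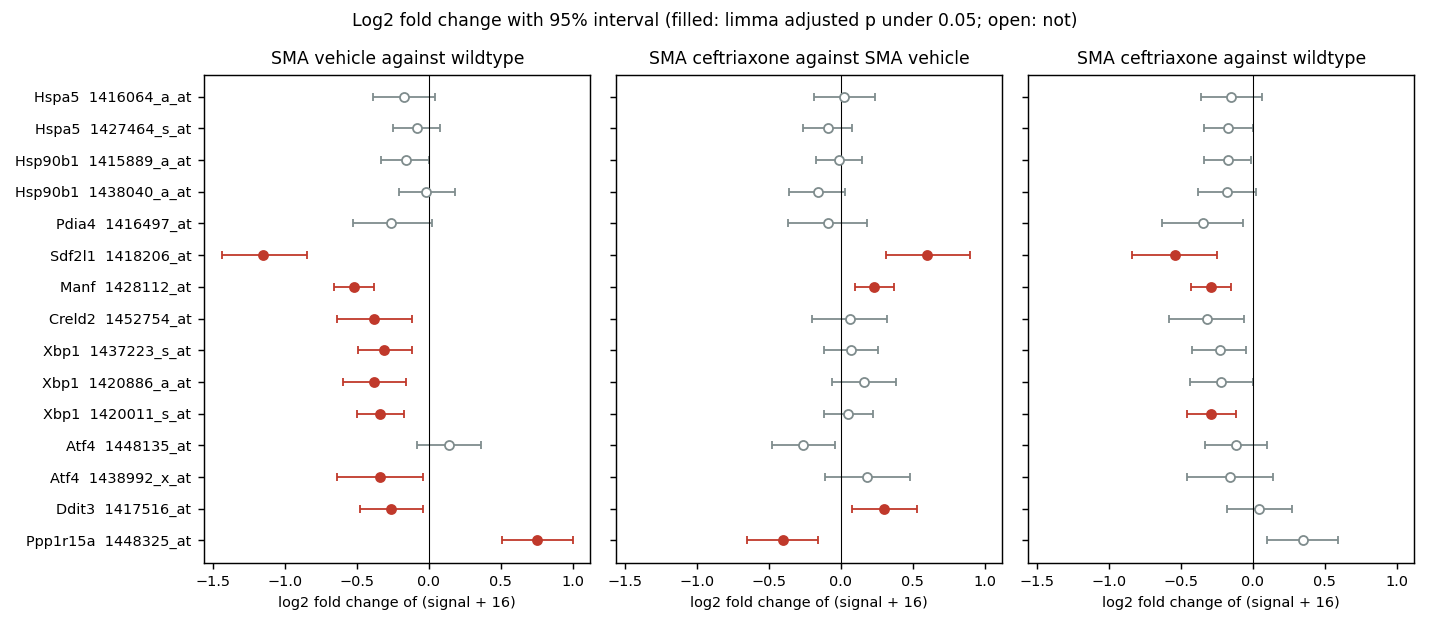
Log2 fold change of signal + 16 for the 15 tested probe sets in the 3 comparisons, with 95% intervals; filled red points passed an adjusted p under 0.05 in limma and open grey points did not. Sdf2l1 at -1.15 and Ppp1r15a at 0.75 are the extremes in SMA vehicle against wildtype, and both stand on the other side of 0 in ceftriaxone against vehicle, at 0.60 and -0.40.

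Xbp1, the transcription factor activated by Ern1, was read by 3 probe sets above the filter, and all 3 fell in SMA vehicle cords. Probe set 1437223_s_at read 2614, 3111, 3009 and 2864 in wildtype, 2339, 2352.5, 2201.5 and 2465 in SMA vehicle and 2576, 2669, 2486 and 2129.6 in the ceftriaxone arrays. Every SMA vehicle array lay below every wildtype array, and the ceftriaxone arrays overlapped both groups. Its log2 fold change was -0.31 ± 0.08 for SMA vehicle against wildtype (adjusted p = 0.0079). Probe sets 1420886_a_at and 1420011_s_at gave -0.38 ± 0.10 (adjusted p = 0.0057) and -0.34 ± 0.07 (adjusted p = 0.00233), also with no overlap. With ceftriaxone against vehicle the 3 gave 0.07, 0.16 and 0.05 (adjusted p = 0.53, 0.22 and 0.652). Against wildtype the ceftriaxone arrays gave -0.23, -0.22 and -0.29, of which the last passed (adjusted p = 0.0473) and the others did not (adjusted p = 0.13 and 0.22).

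The fourth Xbp1 probe set, 1420012_at, lay just under the filter and read 79.1 to 100.9 in SMA vehicle, 116.2 to 153.7 in wildtype and 113 to 135.6 in ceftriaxone arrays. In the same model over all 22626 probe sets, in which 31.3% were called in either direction for SMA vehicle against wildtype, it gave -0.47 ± 0.14 (adjusted p = 0.0191), and 0.40 ± 0.14 for ceftriaxone against vehicle (adjusted p = 0.0539). On the arrays with Xist under 1000 the 3 brighter probe sets gave -0.33, -0.44 and -0.37 and none passed (adjusted p = 0.141, 0.0719 and 0.116), with 3 wildtype and 2 SMA vehicle arrays left. Without wildtype array 2 the 3 brighter probe sets gave -0.27, -0.36 and -0.30, and all passed (adjusted p = 0.0105, 0.00741 and 0.0026). The probe sets of Xbp1 thus gave 1 direction, with sizes of -0.31 to -0.47 over all arrays.

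**Figure D3:**
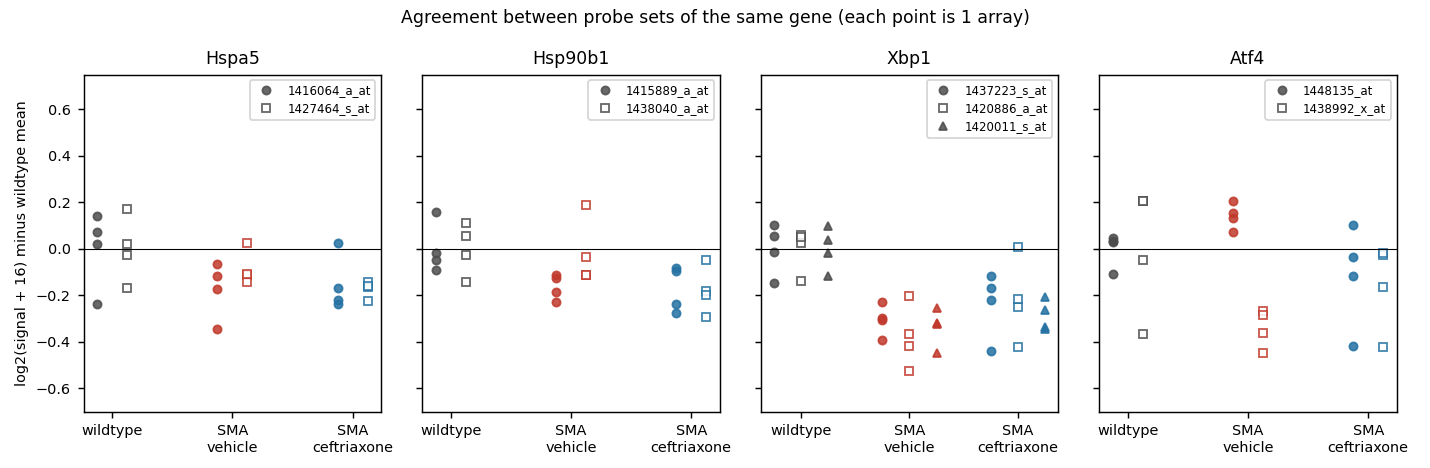
log2(signal + 16) minus the wildtype mean of the same probe set, for the 4 genes with several probe sets above the filter; each point is 1 array, marker shape tells the probe sets apart and colour the group. The 3 Xbp1 probe sets lie below 0 in every SMA vehicle array, while the 2 Atf4 probe sets lie on opposite sides of 0 there.

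Atf4, the transcription factor whose translation rises when eIF2 is phosphorylated, had 2 probe sets that went opposite ways. The brighter, 1448135_at, read 1874.5, 1855, 1681 and 1849 in wildtype, 2091, 2018, 1907 and 1993 in SMA vehicle and 1769, 1949, 1669.9 and 1354.5 in the ceftriaxone arrays. Every SMA vehicle array lay above every wildtype array, but the log2 fold change of 0.14 ± 0.10 did not pass (adjusted p = 0.248). Ceftriaxone against vehicle gave -0.26 ± 0.10 (adjusted p = 0.0521), and ceftriaxone array 4 was the lowest of the 12. The dimmer 1438992_x_at, of a kind whose probes can bind related transcripts, read 445, 668, 669 and 559 in wildtype and 419, 445.5, 477 and 471 in SMA vehicle arrays, which overlap. Its fall of -0.34 ± 0.13 passed (adjusted p = 0.0481) and was lost when any of 10 of the 12 arrays was left out, wildtype array 2 among them (-0.27, adjusted p = 0.0902). No direction can be given for Atf4 mRNA in SMA vehicle cords from these probe sets. The last probe set, 1439258_at, read 3.5 to 10.2.

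Ddit3 (CHOP), the factor that links long ER stress to cell death, was lower in SMA vehicle cords. It read 470.3, 360.4, 452 and 464 in wildtype, 344, 386, 353 and 358 in SMA vehicle and 464, 465, 462 and 405 in the ceftriaxone arrays. Wildtype array 2 lies among the SMA vehicle arrays, and the other wildtype arrays lie above them all, as do the 4 ceftriaxone arrays. Against wildtype the SMA vehicle arrays gave -0.26 ± 0.10 on the log2 scale (adjusted p = 0.043), and -0.35 (adjusted p = 0.0022) without wildtype array 2. The value was 0.30 ± 0.10 for ceftriaxone against vehicle (adjusted p = 0.0276) and 0.04 ± 0.10 for ceftriaxone against wildtype (adjusted p = 0.852; 95% interval -0.18 to 0.27). The call against wildtype was lost in 9 of 12 fits that left out 1 array, with adjusted p up to 0.107, and under quantile normalization (adjusted p = 0.158). The call with ceftriaxone was lost in 6 of 12 such fits, with adjusted p up to 0.0719. On arrays with Xist under 1000, wildtype array 2 among them, the fall was -0.21 (adjusted p = 0.468). On those over 1000 the rise with ceftriaxone was 0.34 (adjusted p = 0.0385). With Xist as a covariate neither call was kept (adjusted p = 0.0594 and 0.0705).

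Ppp1r15a (GADD34), which restores protein synthesis by directing a phosphatase to eIF2, was the only tested member probe set to rise in SMA vehicle cords. It read 221, 206, 255 and 234.5 in wildtype, 449.9, 433, 371 and 339 in SMA vehicle and 289, 321, 290.5 and 281 in the ceftriaxone arrays. The 3 groups do not overlap, in the order opposite to that of Sdf2l1 and Manf. The log2 fold change was 0.75 ± 0.11 for SMA vehicle against wildtype (adjusted p = 1.02e-04; 15.8% of probe sets changed more), and -0.40 ± 0.11 for ceftriaxone against vehicle (adjusted p = 0.0112). Ceftriaxone against wildtype gave 0.35 ± 0.11, 1.27 times the wildtype level, which did not pass (adjusted p = 0.093) although all 4 arrays lay above all wildtype arrays. On arrays with Xist under 1000 the rise was 0.82 (adjusted p = 0.0254), and on those over 1000 the fall with ceftriaxone was -0.39 (adjusted p = 0.0602).

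With ceftriaxone, 4 of the 15 member probe sets passed against SMA vehicle: Sdf2l1, Manf and Ddit3 rose and Ppp1r15a fell. Over all probe sets tested, 18.3% rose and 17.7% fell. The arrays did not overlap for 3 member probe sets that were higher and 2 that were lower, against 45.3% of all probe sets in either direction. The second lower one was the dimmer Hspa5 probe set, with a log2 fold change of -0.09 (adjusted p = 0.381). The median log2 fold change was 0.05 over the members and -0.01 over all probe sets, and the median size without sign was 0.16 against 0.24. The 3 comparisons share arrays, so the fall against wildtype and the rise with ceftriaxone of a gene both rest on the same 4 SMA vehicle arrays.

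Against wildtype, the ceftriaxone cords differed in few members: Sdf2l1 was at 0.69 times, Manf at 0.82 times and Xbp1 probe set 1420011_s_at at 0.82 times the wildtype level. These were 3 of the 15 probe sets, all lower, and 0 rose (limma; 1 higher and 9 lower at an unadjusted p under 0.05). Over all probe sets, 3.29% rose and 0.928% fell in this comparison. The arrays did not overlap for 1 member probe set that was higher (Ppp1r15a) and 4 that were lower (Sdf2l1, Manf, Creld2 and Xbp1 1420011_s_at), with 11.6% of all probe sets in either direction. The median log2 fold change was -0.18 over the members and 0.01 over all probe sets, and the median size 0.22 against 0.14. These calls rest on few arrays. Sdf2l1 was lost in 7 of 12 fits that left out 1 array (adjusted p up to 0.107), Manf in 3 (up to 0.0748) and Xbp1 in 10 (up to 0.141), and 0 of the 15 passed with Xist as a covariate or with each array centred on its median. Xist signal is partly confounded with group in this comparison, so differences tied to Xist and to group cannot be fully told apart.

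The wider pathway was read through 125 further genes in 4 lists, of which 117 were on the array and 102 passed the filter, each by its brightest probe set. In SMA vehicle cords 16 rose and 28 fell (43.1%), beside 49.1% of the 8004 genes counted the same way, with a median log2 fold change of -0.06. With ceftriaxone against vehicle 20 rose and 8 fell (27.5%, beside 37.7% of all genes; median 0.07). With ceftriaxone against wildtype 6 rose and 1 fell (6.86%, beside 4.8%; median 0.01). The share called was thus below that of all genes in the first 2 comparisons. Without wildtype array 2 the counts were 18 higher and 38 lower in SMA vehicle cords, and 34 higher and 13 lower with ceftriaxone against vehicle, where the spread of all groups enters every test. On arrays with Xist under 1000, 3 were higher and 8 lower in SMA vehicle cords, and on arrays with Xist over 1000, 16 rose and 5 fell with ceftriaxone. The shares of all genes called in these fits are not given here, so the counts cannot be set beside them.

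Of 13 tested genes of the sensors and the eIF2 arm, 6 fell, 1 rose and 6 did not pass in SMA vehicle cords; the share called, 53.8%, was near the 49.1% of all genes. Eif2ak3, the ER-resident eIF2 kinase, averaged 729.6 ± 23.4 in wildtype, 501 ± 29.5 in SMA vehicle and 767.3 ± 23.9 in the ceftriaxone arrays (SD, n = 4). Its SMA vehicle arrays lay below all others, with log2 fold changes of -0.53 ± 0.07 against wildtype (adjusted p = 5.39e-05), 0.60 ± 0.07 with ceftriaxone (adjusted p = 7.77e-05) and 0.07 ± 0.07 for ceftriaxone against wildtype (adjusted p = 0.623). Atf6, the sensor that is cleaved to a transcription factor, averaged 495 ± 78.2, 324.6 ± 35.9 and 499 ± 67.3, with -0.58 ± 0.13 (adjusted p = 0.00258) and 0.59 ± 0.13 (adjusted p = 0.00349). Dnajc3 (p58IPK), a lumenal co-chaperone that restrains Eif2ak3, gave -0.52 (adjusted p = 3.50e-04) and 0.42 (adjusted p = 0.0025). Ppp1r15b, the constitutive partner of the eIF2 phosphatase, fell from 873.2 ± 77.5 to 643.2 ± 59 (log2 fold change -0.43, adjusted p = 0.00196), the opposite direction to Ppp1r15a. Atf6b, the close relative of Atf6, fell with ceftriaxone (-0.26, adjusted p = 0.0213), where 4 of the 13 genes rose and 1 fell (38.5% called, beside 37.7% of all genes). Eif2ak4 (GCN2), the kinase that senses uncharged tRNA, did not pass (-0.23, adjusted p = 0.211 in SMA vehicle; 0.02, adjusted p = 0.944 with ceftriaxone), and Ern1 lay under the filter with means of 36.67, 29.05 and 33.35. In ceftriaxone against wildtype 0 of the 13 were called by limma, with 1 higher and 1 lower at an unadjusted p under 0.05.

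Of 24 other ER folding genes, 4 rose and 7 fell in SMA vehicle cords, with a median of -0.11. Ero1a, the oxidase that recharges disulfide isomerases, fell from 693.4 ± 13.1 to 467.1 ± 17.7 (-0.55, adjusted p = 5.56e-05), and Erp44, which retains it in the ER, fell from 1023 ± 116 to 716.4 ± 27.9 (-0.50, adjusted p = 3.35e-04). The thioredoxin-domain proteins Txndc11 and Txndc5 rose, by 0.52 (adjusted p = 9.01e-04) and 0.46 (adjusted p = 0.00246). Hyou1, the nucleotide exchange factor of Hspa5, rose too, from 479 ± 57.2 to 651.7 ± 64 (0.43, adjusted p = 0.00431). With ceftriaxone 3 rose and 3 fell: Ero1a (0.47, adjusted p = 4.36e-04), Dnajb9 (0.39, adjusted p = 0.00214) and Dnajc1 (0.54, adjusted p = 0.00629) rose and Hyou1 fell (-0.42, adjusted p = 0.00771). The share called was 45.8% in the first comparison and 25% in the second, below the 49.1% and 37.7% of all genes. In ceftriaxone against wildtype 0 of 24 were called (limma; 2 higher and 4 lower at an unadjusted p under 0.05).

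Of 32 tested genes of ER-associated degradation and ER export, 10 fell, 1 rose and 21 did not pass in SMA vehicle cords. With ceftriaxone 7 rose, 0 fell and 25 did not pass (limma; 12 higher and 1 lower at an unadjusted p under 0.05). The shares called, 34.4% and 21.9%, were below the 49.1% and 37.7% of all genes. Derl2, a channel component of degradation, fell from 826.5 ± 56.1 to 537.4 ± 24 (-0.61, adjusted p = 5.48e-05), and Edem2, which trims the sugars of misfolded proteins, fell by 0.58 on the log2 scale (adjusted p = 3.42e-04). Sec62, of the translocation channel, gave -0.51 (adjusted p = 5.20e-04), and Sec23b, of the coat of export vesicles, -0.35 (adjusted p = 0.00127). With ceftriaxone Sec23b gave 0.48 (adjusted p = 2.90e-04), Selenos 0.38 (adjusted p = 0.0115), Sec62 0.31 (adjusted p = 0.0179) and Herpud1 0.74 (adjusted p = 0.0195). Herpud1 rose from 644.4 ± 37.8 to 1148 ± 456, with a wide spread over the ceftriaxone arrays (728.2 to 1793.5). The medians of the list were small, -0.07 and 0.10, and Derl2 was the 1 gene still lower than wildtype under ceftriaxone (-0.35, adjusted p = 0.0295).

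Of 33 tested targets of Atf4 and Ddit3, 10 rose, 5 fell and 18 did not pass in SMA vehicle cords (45.5% called, beside 49.1% of all genes), with a median of 0.04. Cebpg, a partner of Atf4, fell from 570.4 ± 109 to 237.7 ± 22.6 (-1.20, adjusted p = 9.22e-06), and the serine synthesis enzyme Psat1 fell from 4051 ± 524 to 2255 ± 161 (-0.83, adjusted p = 2.06e-05). The isoleucyl-tRNA synthetase Iars1 fell by 0.65 on the log2 scale (adjusted p = 2.92e-05), while the cationic amino acid transporter Slc7a3 rose from 331.9 ± 51.2 to 649.4 ± 31 (0.95, adjusted p = 2.10e-05). The stress targets Asns, which makes asparagine, and Chac1, which degrades glutathione, were higher by 0.33 (adjusted p = 0.0384) and 0.53 (adjusted p = 0.00837). Trib3 and Atf3, both commonly read as markers of this arm, lay under the filter, with SMA vehicle means of 63.28 and 42.12. With ceftriaxone 6 of the 33 rose and 4 fell (30.3%, beside 37.7%): Psat1 (0.77, adjusted p = 1.08e-04), Cebpg (0.95, adjusted p = 1.39e-04), Iars1 (0.59, adjusted p = 1.68e-04) and the aminotransferase Gpt2 (0.51, adjusted p = 0.00154) rose.

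Targets of Atf4 and Ddit3 made up 6 of the 7 other pathway genes called against wildtype under ceftriaxone: 6 of 33 rose and 0 fell (18.2%, beside 4.8% of all genes; limma, 9 higher and 0 lower at an unadjusted p under 0.05). Slc7a5, a carrier of large neutral amino acids, went from 940.8 ± 161 in wildtype to 1598 ± 100 in ceftriaxone arrays (0.77, adjusted p = 0.00389), and Sesn2, a leucine sensor that restrains mTORC1, from 184 ± 52.9 to 402.4 ± 46.9 (1.10, adjusted p = 0.00748). Slc7a3 gave 0.57 (adjusted p = 0.0155) and Bbc3 (PUMA), a pro-death Bcl2 family protein that is also a target of p53, 0.93 (adjusted p = 0.0219). Ddit4, an mTORC1 inhibitor also induced by glucocorticoid, gave 1.44 ± 0.34 (adjusted p = 0.0339), with wildtype arrays spread from 643 to 2566.6, and Gpt2 gave 0.44 (adjusted p = 0.0274). In SMA vehicle cords Slc7a5, Sesn2 and Bbc3 had also been higher than wildtype, by 0.63, 0.85 and 1.34 (adjusted p = 4.68e-04, 0.00202 and 1.25e-04). These values were picked once seen. Gpt2 rose with ceftriaxone against vehicle as well, and SMA vehicle values of Ddit4 and Gpt2 are not given here. Over the 4 lists together, the 7 genes called in this comparison became 1 with Xist as a covariate and 10 without wildtype array 2. Xist signal is partly confounded with group here.

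**Figure D4:**
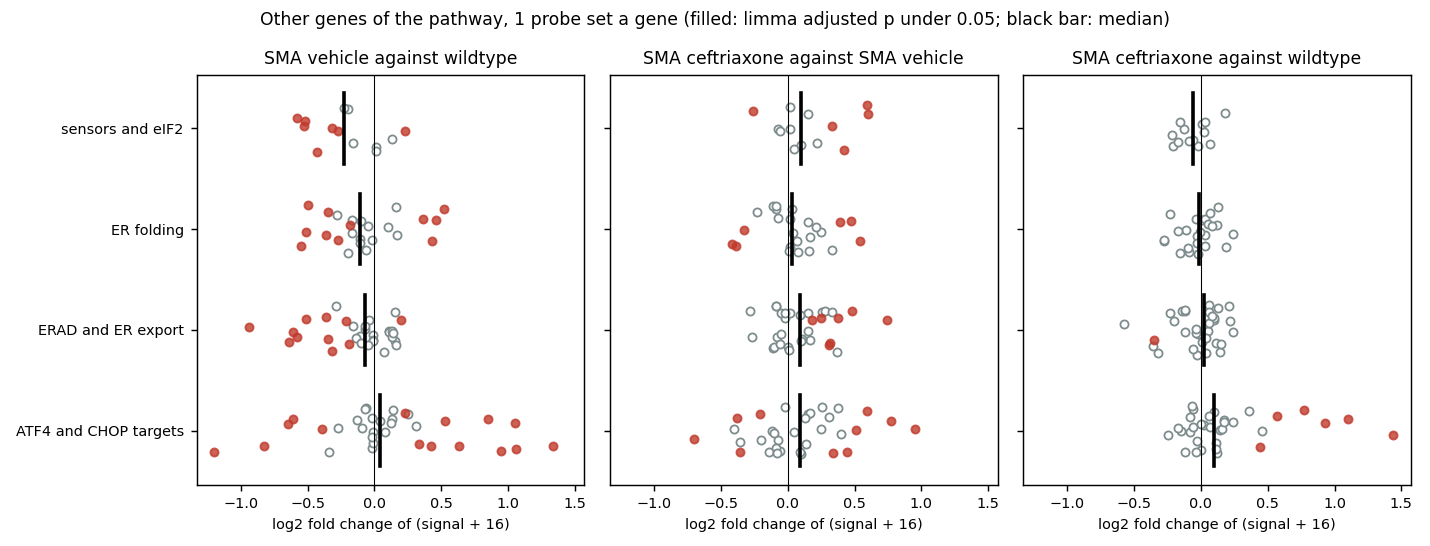
Log2 fold change of signal + 16 for the 102 other pathway genes, 1 point a gene, by list and comparison; red points passed an adjusted p under 0.05 in limma and black bars are list medians. Medians lie between -0.23 and 0.10, and the targets of Atf4 and Ddit3 show the widest spread, from Cebpg at -1.20 to Bbc3 at 1.34 in SMA vehicle against wildtype.

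The patterns nearest to 2 members over the 12 arrays were listed as a description, by Pearson correlation of log2 values with 12586 or 12587 other probe sets of 1 symbol; the arrays share the 3 groups, so group differences alone raise such values. For Hspa5 they were Mcoln1 (0.914), Mmaa (0.90), Ubqln1 (0.891), Fkbp2 (0.877) and Sec62 (0.87), of which Fkbp2 and Sec62 belong to the lists above. For Ddit3 they were Cryzl2 (0.959), Sec63 (0.954), Dock9 (0.944), Amacr (0.943) and Phlpp1 (0.937), of which Sec63 does.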

How the data were processed

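RNA of 12 mouse spinal cord arrays in 3 groups of 4 was analysed from the deposited table of MAS5 signal intensity per probe set, which the authors had scaled per array (MAS5, of unstated version, per the submitters' processing notes). The table holds 22690 probe sets; 20393 have 1 symbol in the platform annotation of 2016, 691 several and 1606 none, and names were given only where there was 1 symbol. Gene identifiers updated the symbols of 20364. After removal of 64 control probe sets, log2(signal + 16) was taken, which understates changes of dim genes, and the 13575 probe sets with a mean above the 40th percentile (7.14, a geometric mean signal of 125) were kept. A mean per group was fitted to the 12 arrays together (limma 3.58.1, R 4.3.3), and the moderated tests of eBayes, with the variance prior following mean signal and 9 residual degrees of freedom, were two-sided. P-values were adjusted by Benjamini-Hochberg over all 13575, with a threshold of 0.05, and intervals of 95% use the residual degrees of freedom. The fit was tested on simulated data first.

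All 10 members are named with every probe set. From the 4 lists of other pathway genes (sensors and eIF2, ER folding, ER-associated degradation and export, Atf4 and Ddit3 targets), up to 4 called genes of smallest p per list and comparison are named, and always Ern1, Eif2ak3, Atf6 and Eif2ak4. Asns, Chac1, Trib3 and Atf3, the SMA vehicle values of Hyou1, Slc7a5, Sesn2 and Bbc3, and Ddit4 and Gpt2 against wildtype fall outside that rule; they were picked once their values had been seen. The 5 nearest patterns of Hspa5 and Ddit3 are named by correlation. The members and all lists, the 8 marker lists included, were chosen with earlier results of these data known. Of 12 thymus genes in the lists, 10 were on the array and 0 passed the filter.

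Other settings tried were an offset of 1 or 64, normalization by quantiles or by array medians, the filter dropped or raised to the 60th percentile, a constant variance prior, array weights, fits to the compared groups alone, blocks of equal sample number, a covariate (Xist signal, or Gapdh signal at the 3 prime over the 5 prime end), and each array left out. Fits to the arrays of Xist signal under 1000, or over it, were added after the data were seen.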

Additional observations from a re-analysis of the deposited data

Results flagged for a closer look

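In 4 of 45 sets of 4 arrays (15 probe sets in 3 groups), 1 array lay farther from the others than Dixon's 95% limit allows; chance flags about 1 in 20. Sdf2l1 read 320.5 in wildtype array 3 and 397.6 to 410.1 in the other wildtype arrays, which still left it above every SMA array. Atf4 probe set 1448135_at read 1681.3 in the same array against 1848.6 to 1874.5. Ddit3 read 360.4 in wildtype array 2, the array with the thymus transcripts, against 452.3 to 470.3 in the others. Ddit3 also read 405.4 in SMA ceftriaxone array 4 against 462.3 to 465 in the others. That ceftriaxone array also gave the lowest Atf4 1448135_at value, 1354.5, and the lowest ceftriaxone values of Manf, Creld2, Pdia4 and all 3 tested Xbp1 probe sets.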

How the results depend on the processing

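Of the 9 member probe sets called in SMA vehicle against wildtype, 184 of 223 values under other settings kept direction and call, 39 kept direction only and 0 changed sign. For ceftriaxone against vehicle these were 86 and 12 of 98, and for ceftriaxone against wildtype 34 and 37 of 71. Sdf2l1, Manf, Ppp1r15a and all 3 Xbp1 probe sets in the first comparison, and Sdf2l1, Manf and Ppp1r15a in the second, passed whichever array was left out. Signs changed for 5 uncalled values near 0. In SMA vehicle against wildtype this was Hsp90b1 1438040_a_at (0.03 with median centring, 0.01 with array weights, 0.06 on arrays of Xist under 1000, -0.09 to 0.02 leaving out each array). In ceftriaxone against vehicle they changed for Hspa5 1416064_a_at (-0.02 with median centring, -0.01 with array weights, -0.03 to 0.06 leaving out each array), Creld2 (-0.03 to 0.12) and Hsp90b1 1415889_a_at (0.00 on arrays of Xist over 1000, -0.04 to 0.02). In ceftriaxone against wildtype Ddit3 gave -0.02 with array weights and -0.04 to 0.09 leaving out each array.

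The member count of 9 in SMA vehicle against wildtype became 3 on arrays of Xist under 1000, where 5 arrays remain, and ran from 6 to 10 leaving out each array; the count of 44 other genes became 11, and 36 to 56. In ceftriaxone against vehicle the 4 members ran from 3 to 5, and the 28 other genes became 49 with array weights, 48 in a fit of only the groups compared, 16 with Xist as a covariate, and 20 to 47 leaving out each array (47 without wildtype array 2). In ceftriaxone against wildtype the 3 members became 0 with median centring, a fit of only the groups compared, Xist as a covariate or the Gapdh ratio, 1 without a filter, and 0 to 3 leaving out each array (1 without wildtype array 3 or 4, SMA vehicle array 4 or ceftriaxone array 1 or 2, 0 without ceftriaxone array 3 or 4). The 7 other genes became 16 with array weights, 2 in a fit of only the groups compared, 1 with Xist as a covariate, 4 with the Gapdh ratio, and 3 to 10 leaving out each array (4 without wildtype array 3, 3 without ceftriaxone array 3 or 4). The shares of all probe sets called under these settings are not given here. A change in these counts therefore cannot be told from a change over the whole array. The cause was not tested.

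The labels do not say whether sample numbers pair the arrays. Deviations of the 12 pairs of arrays with the same number correlated from -0.14 to 0.13 (mean -0.03). Those of the 36 pairs with different numbers ran from -0.27 to 0.20 (mean 0.01). Such ranges do not settle whether the arrays were paired. With the number as a replicate block the member counts were 7, 3 and 2 in the 3 comparisons, and the counts of other genes 42, 26 and 4. The shares of all probe sets called in that fit are not given here, so these counts cannot be set beside them.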

Other observations

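The complete ERSE is in the RefSeq promoter window of 37 gene symbols, 3 of them members (Hspa5, Hsp90b1 and Creld2) and 34 not; 18 of the 37 were on the array and 13 passed the filter, the 3 members among them. This list was written after the data were seen. In SMA vehicle against wildtype 1 of the 13 rose (Spats2l, log2 fold change 0.27) and 3 fell (Dnajc3 -0.52, Creld2 -0.38 and Alg12 -0.28), with a median of -0.16; the share called was 30.8%, beside 49.1% of all 8004 genes. The lectin chaperones Calr and Canx, which hold glycoproteins during folding, gave -0.02 (adjusted p = 0.861) and -0.17 (adjusted p = 0.0836), and the disulfide isomerase Pdia6 gave -0.20 (adjusted p = 0.0563). With ceftriaxone against vehicle Dnajc3 rose (0.42) and Spats2l fell (-0.40), and the other 11 did not pass (15.4% called, beside 37.7% of all genes). In ceftriaxone against wildtype 0 of the 13 were called by limma, with 0 higher and 2 lower at an unadjusted p under 0.05, and 4.8% of all genes were called.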
